A study of Mus musculus with 16 samples.

Results

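The genes described here are 36 genes of fatty acid uptake and oxidation, chosen by name: genes for bringing fatty acids into the cell, activating them to acyl-CoA, carrying them into mitochondria, shortening them by beta-oxidation and passing the electrons on, with a few regulators and storage genes. All 36 were among the 16118 genes listed, each on 1 row, and all 36 passed the minimum of a mean of 1 CPM (counts per megaread) over all libraries, as did 13950 genes in all. Tissue came from 8 mouse embryos at E15.5, each giving 1 atrial and 1 ventricular RNA library, so that there were 16 libraries in 4 groups of 4. All 8 embryos were homozygous for floxed alleles of Meis1 and Meis2, a pair of homeobox transcription factor genes. The 4 embryos labelled dKO, for double knockout, also carried 1 copy of a Cre transgene under the α-MHC promoter, which is active in cardiomyocytes, and the 4 control embryos carried none, so Cre and the deletion cannot be told apart. The design text calls the deletion constitutive or inducible, and the labels do not settle which applies. It also names control littermates, whereas the first number of the titles takes 3 values, 1 of which covers no control embryo. Hearts were dissected, outflow tracts were removed, and whole chambers were used, so that fewer cells of a type and less RNA per cell cannot be told apart in any of these values.

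Libraries held 7.88 to 23.0 listed megareads. Those of dKO ventricles were the shallowest, at 7.88 to 14.3 megareads against 15.6 to 23.0 megareads in control ventricles. A count of 3 reads corresponded to 0.110 to 0.312 CPM, below every value of the 36 genes. The chambers matched their labels, with 8 of 8 ventricular myocyte markers higher and 9 of 9 atrial myocyte markers lower in control ventricles. The deleted genes gave a mixed check. Meis1 measured 26.1 ± 3.19 CPM in dKO atria, against 40.4 ± 2.61 CPM in those of controls (SD, n = 4 each; log2 difference -0.62, SE 0.087, adjusted p = 0.00135), but 40.9 ± 2.41 and 41.5 ± 3.96 CPM in ventricles (adjusted p = 0.95). Meis2 measured 23.4 ± 2.85 CPM in dKO ventricles, against 39.2 ± 3.46 CPM in those of controls (log2 difference -0.73, SE 0.09, adjusted p = 0.0011), but 26.5 ± 1.90 and 25.4 ± 2.04 CPM in atria (adjusted p = 0.726). The labels do not say which exons are removed, and reads from outside them would not show the deletion. The libraries are called dKO below after their label.

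Fatty acids reach heart muscle as lipoprotein triglyceride, which lipoprotein lipase splits in the capillary, and as free acids bound to albumin. Inside the cell they are tied to coenzyme A, passed to carnitine, moved across the inner mitochondrial membrane and shortened step by step in the beta-oxidation spiral, a cycle of dehydrogenation, hydration, a second dehydrogenation and thiolytic cleavage. The adult heart draws most of its energy from this route, while the fetal heart relies more on glucose and lactate. Many of the genes are targets of the nuclear receptors PPARα, PPARδ and ERR and of their coactivator PGC-1α. Of these, Ppara, Ppard and Ppargc1a, which encodes PGC-1α, are among the 36.

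Sequences upstream of the start sites were read for motifs of these receptors and of MEIS proteins. The 250 bases before RefSeq start sites (GRCm38.p6) were at hand for 30 of the 36 genes, here called their windows, and both strands were searched. A member was counted if any of its windows held the motif, while the shares of all windows count single windows. These counts and shares are therefore unlike measures. The DR1 element bound by PPAR with RXR, AGGTCANAGGTCA, was in none of them, and in 0.033% of all 32851 windows. The core hexamer AGGTCA of nuclear receptors, which the DR1 element contains, was in the windows of 6 members, Acadm, Acadvl, Cd36, Cpt1a, Echs1 and Plin2, and in 14.0% of all windows. The ERR element TCAAGGTCA, which ends in the same hexamer, was in none of the members and in 0.387% of all windows. The MEIS core TGACAG was in the windows of Acot1, Acsl1 and Ppard and in 15.9% of all windows. None of the 6 genes lower in dKO atria held any of these motifs in its window, which says only that these letters are not there. Shown here are the upstream parts for Fabp3 and Eci1, the members with the largest differences in dKO atria, and for Acadvl and Acadm, acyl-CoA dehydrogenase genes whose windows hold the hexamer. Each runs 5′ to 3′ on the gene's strand from 250 bases before the RefSeq start. It ends at the last base before the RefSeq start or before the first start annotated in GENCODE M21, whichever comes earlier. Capitals mark AGGTCA or its complement TGACCT.
Fabp3, chr4:130308488-130308594, plus strand, 107 bases: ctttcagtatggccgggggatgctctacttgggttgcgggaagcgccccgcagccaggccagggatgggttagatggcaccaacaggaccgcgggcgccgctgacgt
Eci1, chr17:24426433-24426640, plus strand, 208 bases: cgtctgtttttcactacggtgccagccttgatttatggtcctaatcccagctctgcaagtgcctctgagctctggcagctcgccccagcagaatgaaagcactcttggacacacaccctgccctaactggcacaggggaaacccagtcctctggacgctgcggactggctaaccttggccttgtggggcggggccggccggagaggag
Acadvl, chr11:70015429-70015678, minus strand, 250 bases: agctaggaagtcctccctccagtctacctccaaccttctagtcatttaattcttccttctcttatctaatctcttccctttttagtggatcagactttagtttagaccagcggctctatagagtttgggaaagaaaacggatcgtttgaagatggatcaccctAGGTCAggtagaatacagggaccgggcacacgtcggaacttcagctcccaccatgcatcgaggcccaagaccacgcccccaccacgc
Acadm, chr3:153944644-153944893, minus strand, 250 bases: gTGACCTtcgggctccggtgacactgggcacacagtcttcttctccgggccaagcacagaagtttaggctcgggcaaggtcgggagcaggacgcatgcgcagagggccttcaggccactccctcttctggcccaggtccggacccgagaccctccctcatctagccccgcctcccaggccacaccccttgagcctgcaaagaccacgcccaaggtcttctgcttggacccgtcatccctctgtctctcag
The Acadvl hexamer starts 87 bases before the RefSeq start and that of Acadm 249 bases before it.

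Per length of the main transcript, levels spanned a wide range. Fabp3, which encodes the fatty acid binding protein of heart and muscle cytosol, had the highest mean level over the 16 libraries, at 304 CPM per kilobase. Acadl, the long-chain acyl-CoA dehydrogenase, followed at 229.6 CPM per kilobase, Acaa2, the mitochondrial ketoacyl-CoA thiolase, at 204 and Etfb, a subunit of the electron transfer flavoprotein, at 164 CPM per kilobase. The lowest were Ppara, at 1.69 CPM per kilobase, Angptl4, a secreted inhibitor of lipoprotein lipase, at 3.7 and Ppard at 5.9 CPM per kilobase. Among genes that do the same step, Cpt1b, the muscle form of the outer-membrane carnitine palmitoyltransferase, stood at 81.5 CPM per kilobase and Cpt1a, the form best known from liver, at 13.6. The acyl-CoA synthetase genes Acsl1, Acsl3 and Acsl4 stood at 19.8, 14.2 and 6.11 CPM per kilobase. Summed over the 36 genes, control atria held 3582 to 4097 CPM, dKO atria 3443 to 3667, control ventricles 5134 to 5820.3 and dKO ventricles 4851 to 5574 CPM. The ranges of the chambers did not overlap, while those of the genotypes overlapped within each chamber.

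**Figure D1:**
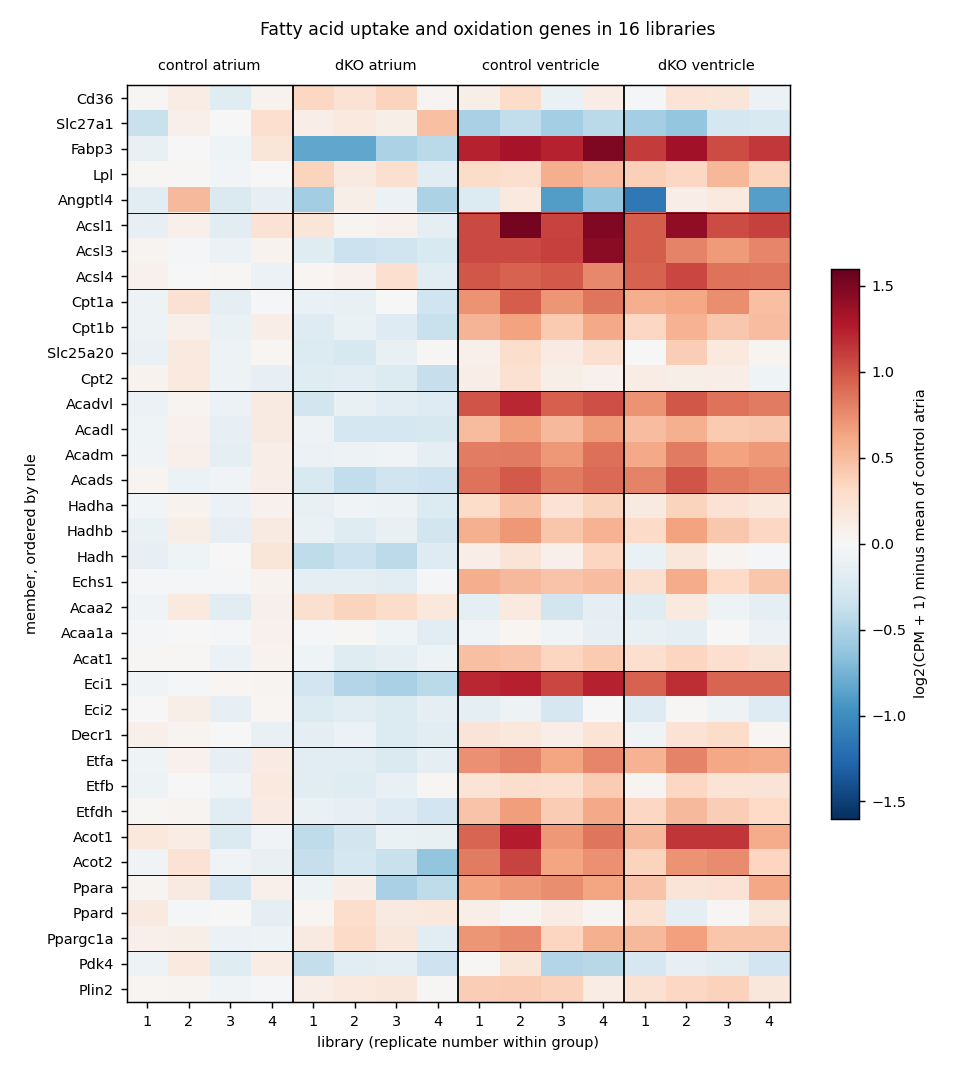
Each row is 1 of the 36 genes, in order of role, and each column 1 of the 16 libraries, numbered within its group. Colour gives log2(CPM + 1) minus the mean of the 4 control atria, red for higher and blue for lower. Most rows are red across the 8 ventricular columns, and in the dKO atria Fabp3, Eci1, Acot2 and Hadh are among the blue rows.

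Ventricles held more RNA of most of these genes than atria. In control embryos 26 of the 36 were higher in ventricles and 1 was lower, at an adjusted p under 0.05. Of all 13950 genes tested, 26.4% were higher and 20.5% lower by the same rule. The median log2 difference of the 36 genes was 0.53, against 0.031 for all genes tested. In dKO embryos 28 were higher, where 26.5% of all genes were, and 2 lower, where 22.5% were. The 26 genes higher in control ventricles were all among the 28. In 28 of the 36 the ventricle exceeded the atrium in each of the 8 embryos, as it did for 22.9% of all genes. By edgeR or DESeq2 on the recovered reads the split in control embryos was 24 higher and 4 lower. Cell type markers differed between chambers as well. Summed over 10 genes, fibroblast markers stood at 4227 to 4841 CPM in control ventricles and 5573 to 7434 CPM in control atria, and 8 epicardial markers at 113 to 152 and 378 to 444 CPM. The 12 cardiomyocyte markers, which include atrial genes such as Myl7 (log2 -4.08), stood at 23582 to 27574 and 32549 to 37830.3 CPM, with 5 called higher and 3 lower in ventricles. The part of these shifts in the chamber differences was not tested.

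Among uptake genes, Fabp3 had the largest difference of the 36. Fabp3 measured 143, 155, 149 and 179 CPM in control atria and 87.3, 87.1, 109 and 115 CPM in dKO atria. Its ventricular values were 369, 392, 368 and 442 CPM in control and 339.7, 399, 322 and 343 CPM in dKO libraries. Every ventricle lay above every atrium, with a mean 2.51 times the atrial mean in control embryos (log2 difference 1.32, SE 0.091, adjusted p = 1.13e-09) and 3.52 times in dKO embryos (log2 difference 1.81, SE 0.091, adjusted p = 1.5e-11). Lpl measured 204, 205, 196 and 201 CPM in control atria and 258, 223, 241 and 177 CPM in dKO atria. Ventricles gave 247, 242, 303 and 282 CPM in control and 263, 253, 291 and 258 CPM in dKO libraries. Lpl encodes lipoprotein lipase, and its lowest control ventricle lay above its highest control atrium (log2 difference 0.41, SE 0.087, adjusted p = 0.000815), while in dKO embryos the chambers overlapped, at 1.19 times (log2 difference 0.26, SE 0.087, adjusted p = 0.0211). The dKO call for Lpl was lost under quantile normalization and without dKO embryo 3 or 4, with an adjusted p of up to 0.227. Slc27a1, a fatty acid transport protein, was the member lower in control ventricles, at 14.9 ± 0.817 CPM against 21.3 ± 3.89 CPM in atria (log2 difference -0.47, SE 0.11, adjusted p = 0.00218), and it was lower in all 8 embryos, as were 18.2% of all genes. Cd36, the membrane fatty acid translocase, measured 164 to 239.7 CPM over all libraries (log2 0.10 in control and -0.16 in dKO embryos), and Angptl4 5.94 to 20.9 CPM (log2 -0.39 and -0.17). Neither passed by limma in either genotype. By edgeR and by DESeq2, 2 of the 5 uptake genes were lower in ventricles of both genotypes, where limma called Slc27a1 alone.

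All 3 acyl-CoA synthetase genes were higher in ventricles of both genotypes. Acsl1 measured 41.6, 48.2, 39.9 and 53.5 CPM in control atria and 51.9, 46.8, 47.9 and 41.0 CPM in dKO atria. The ventricular libraries held 95.5, 133, 97.2 and 129 CPM in control and 90.3, 123, 94.4 and 98.4 CPM in dKO libraries. Acsl1, the main long-chain synthetase of heart muscle, was 2.48 times as high in control ventricles as in control atria (log2 difference 1.29, SE 0.11, adjusted p = 2.82e-08), with no overlap of chambers in either genotype. Acsl3 measured 39.5, 37.8, 35.9 and 39.8 CPM in control atria and 33.3, 29.9, 30.5 and 32.2 CPM in dKO atria. In ventricles it measured 80.7, 80.4, 82.6 and 106 CPM in control and 75.8, 67.2, 62.0 and 66.6 CPM in dKO libraries. Acsl3, a synthetase found at lipid droplets and the endoplasmic reticulum, showed the same separation (log2 difference 1.16, SE 0.074, adjusted p = 4.12e-10). Acsl4, which prefers arachidonic acid, measured 42.1 ± 3.04 CPM in control ventricles and 21.8 ± 1.06 CPM in control atria (log2 0.92, adjusted p = 1.7e-08).

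Of the 4 carnitine shuttle genes, both genes of the entry step were higher in control ventricles. Cpt1a was 1.77 times as high in control ventricles (log2 difference 0.81, SE 0.079, adjusted p = 1.26e-07) and Cpt1b 1.47 times (log2 difference 0.55, SE 0.063, adjusted p = 8.94e-07). Slc25a20, the carnitine-acylcarnitine carrier, differed by 0.19 on the log2 scale in control embryos (adjusted p = 0.0658) and by 0.30 in dKO embryos (adjusted p = 0.00556, and up to 0.0641 without dKO embryo 2). Cpt2, which returns the acyl group to coenzyme A in the matrix, differed by 0.13 (adjusted p = 0.107) and 0.31 (adjusted p = 0.0006). For neither gene did the test of the difference between genotypes pass (log2 0.11 and 0.18, adjusted p = 0.783 and 0.418).

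The 4 acyl-CoA dehydrogenase genes, which open each turn of the spiral for chains of falling length, were all higher in ventricles of both genotypes. Acadvl measured 76.9, 85.1, 77.4 and 91.1 CPM in control atria and 66.9, 75.8, 73.0 and 71.4 CPM in dKO atria. Its ventricular values were 166, 192, 161 and 169 CPM in control and 137, 165, 152 and 147 CPM in dKO libraries. Acadvl serves very long chains, and every ventricle lay above every atrium (log2 difference 1.05, SE 0.064, adjusted p = 1.97e-10). Acadl measured 351, 387, 336 and 408 CPM in control atria and 349, 303, 304 and 309.8 CPM in dKO atria. Ventricles gave 523, 585, 529 and 593 CPM in control and 519, 547, 495 and 499 CPM in dKO libraries. Acadl, for long chains, also separated the chambers fully (log2 difference 0.59, SE 0.062, adjusted p = 3.38e-07). Acadm, for medium chains, measured 249 ± 13.1 CPM in control ventricles and 142 ± 11.4 CPM in control atria (log2 0.81, adjusted p = 1.19e-09). Acads measured 54.5, 49.7, 50.7 and 56.8 CPM in control atria and 44.4, 39.9, 42.0 and 42.0 CPM in dKO atria. The ventricular libraries held 97.4, 105, 95.2 and 100.3 CPM in control and 92.1, 107, 93.9 and 91.4 CPM in dKO libraries. Acads, for short chains, was 1.88 times as high in control ventricles (log2 difference 0.90, SE 0.058, adjusted p = 4.38e-10) and 2.29 times as high in dKO ventricles, again without overlap.

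Of the 7 genes for the later steps, 5 were higher in control ventricles. Hadha measured 348, 373, 334 and 376 CPM in control atria and 330.1, 345, 339 and 307 CPM in dKO atria. In ventricles it measured 439, 493, 421 and 457 CPM in control and 394, 456, 419.9 and 403 CPM in dKO libraries. Hadha, the larger subunit of the mitochondrial trifunctional protein, was 1.27 times as high in control ventricles (log2 difference 0.34, SE 0.056, adjusted p = 7.33e-05). Hadhb, the subunit with the thiolase, was 1.48 times as high (log2 0.57), Echs1, the short-chain enoyl-CoA hydratase, 1.43 times (log2 0.51) and Acat1, the mitochondrial acetoacetyl-CoA thiolase, 1.34 times (log2 0.42), all past the test. Hadh measured 144, 151, 157 and 180.1 CPM in control atria and 118, 123, 117 and 137 CPM in dKO atria. Its ventricular values were 169.8, 181, 167 and 200.4 CPM in control and 146, 179, 162 and 153 CPM in dKO libraries. Hadh, the hydroxyacyl-CoA dehydrogenase for shorter chains, overlapped between control chambers at 1.14 times (log2 difference 0.19, SE 0.072, adjusted p = 0.0433), and that call was lost under 6 of 10 alternatives and 4 of 8 fits without 1 embryo, with an adjusted p of up to 0.283. Acaa2 measured 289, 337, 267 and 319 CPM in control atria and 361, 388, 370.4 and 339.9 CPM in dKO atria. Ventricles gave 272, 337, 245 and 271 CPM in control and 264, 335, 285 and 271 CPM in dKO libraries. Acaa2 ran the other way in the libraries labelled dKO, where all atria lay above all ventricles (log2 -0.34, adjusted p = 0.00273), while in control embryos the chambers overlapped (log2 -0.11, adjusted p = 0.297). The difference between the genotypes did not pass the test for Acaa2 (log2 -0.23, adjusted p = 0.443). Acaa1a, a peroxisomal thiolase, measured 52.1 to 61.4 CPM over the 16 libraries and passed by limma in neither genotype. By edgeR and by DESeq2, 1 of the 7 genes was lower in control ventricles, where limma called none lower.

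Of the auxiliary enzymes that handle double bonds, Eci1, the mitochondrial enoyl-CoA isomerase, had the smallest adjusted p of the 36. Eci1 measured 42.0, 43.3, 45.0 and 45.4 CPM in control atria and 35.5, 31.4, 30.3 and 32.2 CPM in dKO atria. The ventricular libraries held 102, 106, 93.1 and 104 CPM in control and 85.8, 101, 84.5 and 84.7 CPM in dKO libraries. Ventricles were 2.31 times as high as atria in control embryos (log2 difference 1.19, SE 0.061, adjusted p = 2.21e-11) and 2.75 times in dKO embryos, with no overlap. Eci2, an isomerase of peroxisomes and mitochondria, did not pass by limma (log2 -0.12 in control embryos, adjusted p = 0.103). However, edgeR and DESeq2 each called 1 auxiliary gene lower in control ventricles, and Eci2 alone of these genes lay below 0 by limma. Decr1, the dienoyl-CoA reductase, was 1.13 times as high in control ventricles (log2 difference 0.18, SE 0.065, adjusted p = 0.0345), a call lost under 4 alternatives and whenever a control embryo was left out, with an adjusted p of up to 0.222. Electron transfer genes were higher in ventricles of both genotypes: in control embryos Etfa by 0.73, Etfb by 0.29 and Etfdh, which hands the electrons to ubiquinone, by 0.54 on the log2 scale. Acot2 measured 31.5, 38.8, 31.5 and 30.0 CPM in control atria and 25.2, 26.9, 25.5 and 20.8 CPM in dKO atria. In ventricles it measured 59.2, 70.3, 51.2 and 55.2 CPM in control and 42.2, 54.6, 55.9 and 41.8 CPM in dKO libraries. Acot2, a mitochondrial acyl-CoA thioesterase, was 1.79 times as high in control ventricles (log2 difference 0.82, SE 0.10, adjusted p = 3.92e-06), and Acot1, its cytosolic relative, 1.98 times (log2 difference 0.94, SE 0.14, adjusted p = 1.74e-05).

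Among regulators, Ppara was 1.72 times as high in control ventricles (8.07 ± 0.31 against 4.70 ± 0.699 CPM; log2 difference 0.68, SE 0.14, adjusted p = 0.000485) and Ppargc1a 1.52 times (106 ± 12.9 against 69.3 ± 5.07 CPM; log2 difference 0.59, SE 0.089, adjusted p = 2.41e-05). Ppard measured 16.4 to 22.3 CPM over all libraries, with log2 differences of 0.08 and -0.078 in control and dKO embryos. Pdk4, the kinase that restrains pyruvate dehydrogenase, measured 43.1 to 68.8 CPM (log2 -0.18 and 0.042), and neither gene passed in either genotype. Plin2, a lipid droplet coat protein, was 1.26 times as high in control ventricles (log2 difference 0.32, SE 0.061, adjusted p = 0.000292). Its dKO call (log2 difference 0.17, SE 0.061, adjusted p = 0.0287) was lost under quantile normalization, under DESeq2 and without dKO embryo 1, 2 or 3.

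**Figure D2:**
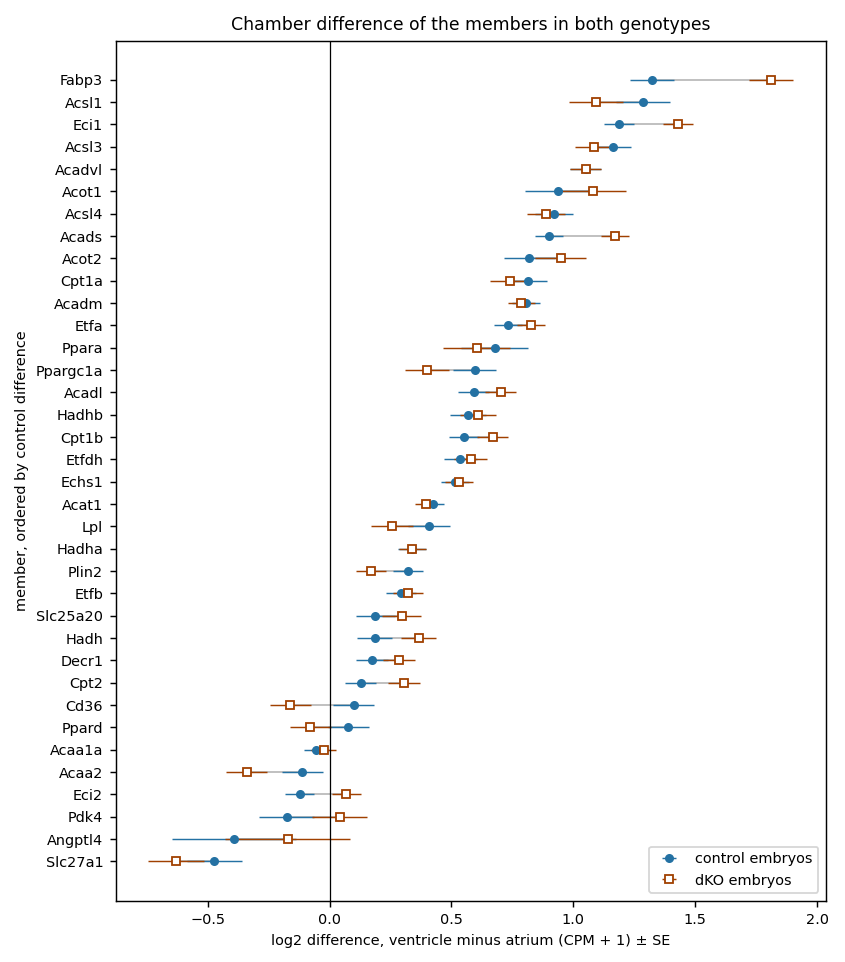
Each row is 1 of the 36 genes, ordered by how far the chambers of controls differ, and the horizontal axis is the log2 difference of ventricle minus atrium (CPM + 1) with its SE. Filled circles are control and open squares dKO embryos. Fabp3 lies farthest right in both genotypes, at 1.32 and 1.81, and Slc27a1 farthest left, at -0.47 and -0.63.

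The design sets dKO against control tissue within each chamber. In atria, 6 of the 36 genes were lower in dKO embryos and 0 higher, where 3.43% of all 13950 genes were lower and 4.04% higher. The 6 were Fabp3, Acsl3, Acads, Hadh, Eci1 and Acot2. Uptake, activation, 2 steps of the spiral, an auxiliary enzyme and a thioesterase thus each had a member. The carnitine shuttle, electron transfer and regulator groups had none in this fit, and neither Pdk4 nor Plin2 was called. DESeq2 called 2 carnitine shuttle genes, 1 electron transfer gene and 1 of Pdk4 and Plin2 lower, and none of the regulators. Cpt2, of the carnitine shuttle, was called under 4 alternatives given with the other members. Of the 36 differences, 27 lay below 0, with a median of -0.17 against -0.0046 for all genes tested. At an unadjusted p under 0.05, 18 were lower and 2 higher, the latter being Cd36 and Acaa2, where 9.52% of all genes were lower and 10.8% higher. edgeR called 6 lower, and DESeq2 13 lower and 2 higher. Without overlap between the 4 dKO and the 4 control atria, 11 members were lower and 1, Acaa2, was higher, where 6.82% of all genes were lower and 7.29% higher without overlap. The summed cardiomyocyte markers were lower in these atria too, though 4 of the 12 lay above 0 and only 1 was called, as set out after the single genes.

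Fabp3 (GRCm38 chromosome 4, 130308595 to 130315463, plus strand) had the largest difference. It measured 99.7 ± 14.7 CPM in dKO atria, against 157 ± 15.7 CPM in those of controls (SD, n = 4 each), 63.6% of the control mean (log2 difference -0.65, SE 0.10, adjusted p = 0.00263), and all 4 dKO atria lay below all 4 controls. Eci1 (chromosome 17, 24426641 to 24439348, plus strand) measured 32.4 ± 2.22 against 43.9 ± 1.58 CPM (log2 difference -0.43, SE 0.064, adjusted p = 0.00183), and its dKO atria also lay below all controls. Acads (chromosome 5, 115110299 to 115119346, minus strand) measured 42.1 ± 1.87 against 52.9 ± 3.33 CPM (log2 difference -0.32, SE 0.062, adjusted p = 0.00887). These 3 genes kept their call under all 12 alternative settings and all 8 fits without 1 library. Acot2 (chromosome 12, 83987861 to 83993873, plus strand) measured 24.6 ± 2.62 against 32.9 ± 3.98 CPM (log2 difference -0.41, SE 0.10, adjusted p = 0.0303). Hadh (chromosome 3, 131233419 to 131272101, minus strand) measured 124 ± 9.04 against 158 ± 15.7 CPM (log2 difference -0.35, SE 0.076, adjusted p = 0.0186), and Acsl3 (chromosome 1, 78657825 to 78707743, plus strand) 31.5 ± 1.56 against 38.2 ± 1.80 CPM (log2 difference -0.27, SE 0.062, adjusted p = 0.0219). In each of these 3 genes, too, the groups did not overlap. The call for Acsl3 was lost without control atrium 1, 2 or 4 or dKO atrium 2 or 3, with an adjusted p of up to 0.0705, and that for Hadh without dKO atrium 2 or 3, with up to 0.0631. The call for Acot2 was lost without control atrium 1, 2 or 3 or dKO atrium 3, with up to 0.0821.

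**Figure D3:**
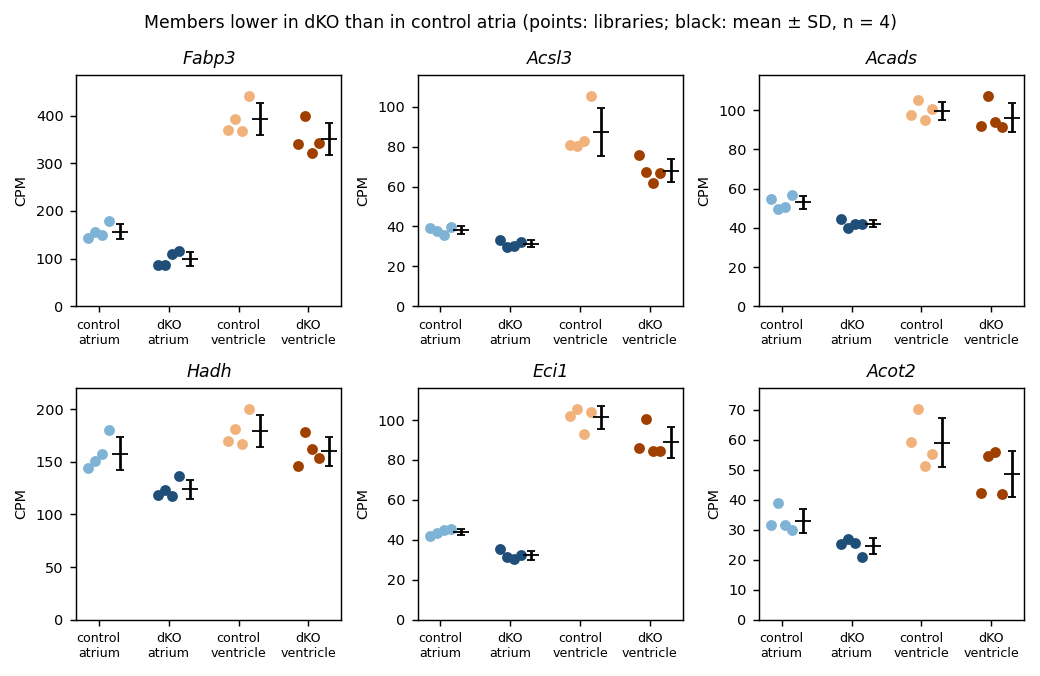
CPM of the 6 genes lower in dKO atria, 1 panel per gene, with each library as a point and the mean ± SD of its group (n = 4) in black beside it. In each panel the 4 dKO atria lie below the 4 control atria, and the dKO and control ventricles overlap in every panel except that of Acsl3.

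The number that opens the titles is shared by 2 control and 2 dKO embryos in 1 case only. Among these 4 embryos 8 members were lower in atria. Fabp3 differed by -0.61, Eci1 by -0.45, Acads by -0.34, Acsl3 by -0.35 and Hadh by -0.29 on the log2 scale, all past the test, and Acot2 by -0.40 (adjusted p = 0.0621). The other 3 were Cpt2, at -0.31 (adjusted p = 0.0406), Acadl, at -0.28 (adjusted p = 0.0302), and Eci2, at -0.24 (adjusted p = 0.0453), which were not called over all 8 atria. With the title number as a covariate Cpt2 and Acadl were called too, with adjusted p values of 0.0128 and 0.041.

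Among the other members the atrial differences were smaller or wider in error. In uptake, Cd36 measured 222 ± 21.2 against 188 ± 16.7 CPM (log2 0.24, adjusted p = 0.122), Lpl 225 ± 35.0 against 201 ± 3.97 CPM (log2 0.14, adjusted p = 0.465) and Slc27a1 24.6 ± 3.45 against 21.3 ± 3.89 CPM (log2 0.21, adjusted p = 0.429). Without dKO atrium 4 both Cd36 (log2 0.30, adjusted p = 0.0246) and Lpl (log2 0.25, adjusted p = 0.0171) were called higher, and DESeq2 called Cd36 as well. Acaa2 measured 365 ± 20.1 against 303 ± 30.9 CPM (log2 0.27, adjusted p = 0.0579), with every dKO atrium above every control, and was called higher under 3 alternatives and in 2 fits without 1 library. Of the 4 carnitine shuttle genes, all lay below 0, from -0.24 for Cpt2 to -0.13 for Cpt1a, with adjusted p values from 0.0824 upward. Cpt2 was called lower with the title number as a covariate, among the 4 embryos that share one, in DESeq2 and in the fit of all 16 libraries, and Cpt1b in the last 2 of these. Cpt1b and Cpt2 were without overlap, as were Acadvl, Eci2 and Etfa. The electron transfer genes Etfa, Etfb and Etfdh differed by -0.18, -0.12 and -0.19, and DESeq2 called 1 of the 3 lower. Acsl1 and Acsl4, at 0.038 and 0.047, did not pass beside Acsl3. Of the regulators, Ppara differed by -0.22, Ppard by 0.16 and Ppargc1a by 0.12, with adjusted p values of 0.51, 0.35 and 0.569. Pdk4 differed by -0.26 (adjusted p = 0.0963) and Plin2 by 0.11 (adjusted p = 0.314), and DESeq2 called 1 of these 2 lower. The remaining members, Angptl4, Acadl, Acadm, Hadha, Hadhb, Echs1, Acaa1a, Acat1, Decr1 and Acot1, lay between -0.27 (Angptl4) and -0.062 (Acaa1a).

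All 6 genes lower in dKO atria belonged to the 26 that were higher in control ventricles, but those 26 are 72.2% of the 36 members. These comparisons also share the control atria, and their values are only set side by side here. Fabp3 was -0.65 in dKO atria and 1.32 in control ventricles relative to control atria, Eci1 -0.43 and 1.19, and Hadh -0.35 and 0.19.

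Summed levels or single markers of several cell types differed with genotype in atria. Of all genes tested, 4.04% were called higher and 3.43% lower there. Beside those shares, 1 call in a list of 8 to 12 markers says little about its cell type. The summed level of 12 cardiomyocyte markers was 30205 to 32133 CPM in dKO and 32549 to 37830.3 CPM in control atria, without overlap. Of the 12, 8 lay below 0 and 4 above, with a median of -0.099, and 1, Actn2, was called lower (log2 -0.36). Actc1, Myh6 and Tnnt2 weighed most in this sum, with means of 6957, 6744 and 4232 CPM over all libraries. The 10 fibroblast markers summed to 6491 to 10688 against 5573 to 7434 CPM, with Fbln1, Dcn and Tcf21 called higher. The 8 smooth muscle and pericyte markers summed to 1015 to 1445 against 747 to 875 CPM, with Cspg4, Acta2 and Myh11 called higher. Of these 8, 6 lay above 0 and 2 below, down to -0.66, and DESeq2 called 5 higher and 1 lower. Acta2 made up most of this sum, with a mean of 1035 CPM over all libraries. The 8 epicardial markers summed to 450.2 to 539 against 378 to 444 CPM, with Msln called higher, and the 10 macrophage and leukocyte markers to 107 to 169 against 105 to 124 CPM, with C1qb called higher. The 10 endothelial markers summed to 1050.1 to 1350.1 against 1152 to 1165 CPM. Of these 10, 7 lay above 0 (median 0.053), Kdr was called lower (log2 -0.23), and DESeq2 called 2 higher and 1 lower. Of the 9 erythroid markers (3021 to 5354 against 2551 to 5699 CPM) none was called. The 9 atrial myocyte markers summed to 13226 to 14554 against 10410 to 12347 CPM, with 3 called higher and 2 lower. The 8 ventricular myocyte markers summed to 266 to 1085 against 438 to 1615 CPM. Of these 8, Lrrc10 and Myl3 were called lower (log2 -2.14 and -1.58), and 3 lay above 0. The part of these shifts in the 6 lower members was not tested. The 7 adipocyte markers summed to at most 0.375 CPM in any atrium, and none reached the minimum for the test. Retn had 0 reads in all 16 libraries and Adipoq in 12 of 16.

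In ventricles, where the dKO libraries were the shallowest, limma called 0 of the 36 genes, where 2.0% of all genes were called. At an unadjusted p under 0.05 there were 10, all lower (Fabp3, Acsl3, Cpt1a, Acadvl, Hadh, Acat1, Eci1, Etfdh, Acot2 and Ppara), where 7.61% of all genes were lower at that threshold. edgeR called 0 and DESeq2 1, Acsl3. The differences of 31 of the 36 lay below 0, with a median of -0.092 against -0.018 for all genes, and the lowest was -0.35 for Acsl3. Acsl3 measured 67.9 ± 5.80 CPM in dKO ventricles, against 87.3 ± 12.2 CPM in those of controls (log2 difference -0.35, SE 0.087, adjusted p = 0.0671). Without overlap between genotypes, 2 members were lower, Acsl3 and Ppara, and none was higher, where 4.78% of all genes were lower and 3.33% higher. With the title number as a covariate the adjusted p of Acsl3 was 0.0346. Among those 4 embryos with a title number in common it differed by -0.32 (adjusted p = 0.139). Ppara differed by -0.30 (adjusted p = 0.323), Acot2 by -0.28 (adjusted p = 0.314) and Cpt1a by -0.21 (adjusted p = 0.208). Eci1 differed by -0.19 (adjusted p = 0.205) and was called without dKO ventricle 2 (log2 -0.25, adjusted p = 0.0338). Fabp3 measured 351 ± 33.5 against 393 ± 34.4 CPM, with overlapping groups (log2 -0.16, adjusted p = 0.373). By role, all 4 carnitine shuttle, all 4 acyl-CoA dehydrogenase and all 3 electron transfer genes lay below 0 without passing, with medians of -0.081, -0.11 and -0.094. The uptake genes Cd36, Slc27a1, Lpl and Angptl4 lay between -0.048 (Angptl4) and 0.052 (Slc27a1). The standard errors of the 36 differences had a median of 0.071 in ventricles and 0.075 in atria. The summed cardiomyocyte markers of the ventricles overlapped between genotypes, at 24948 to 27856 against 23582 to 27574 CPM.

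**Figure D4:**
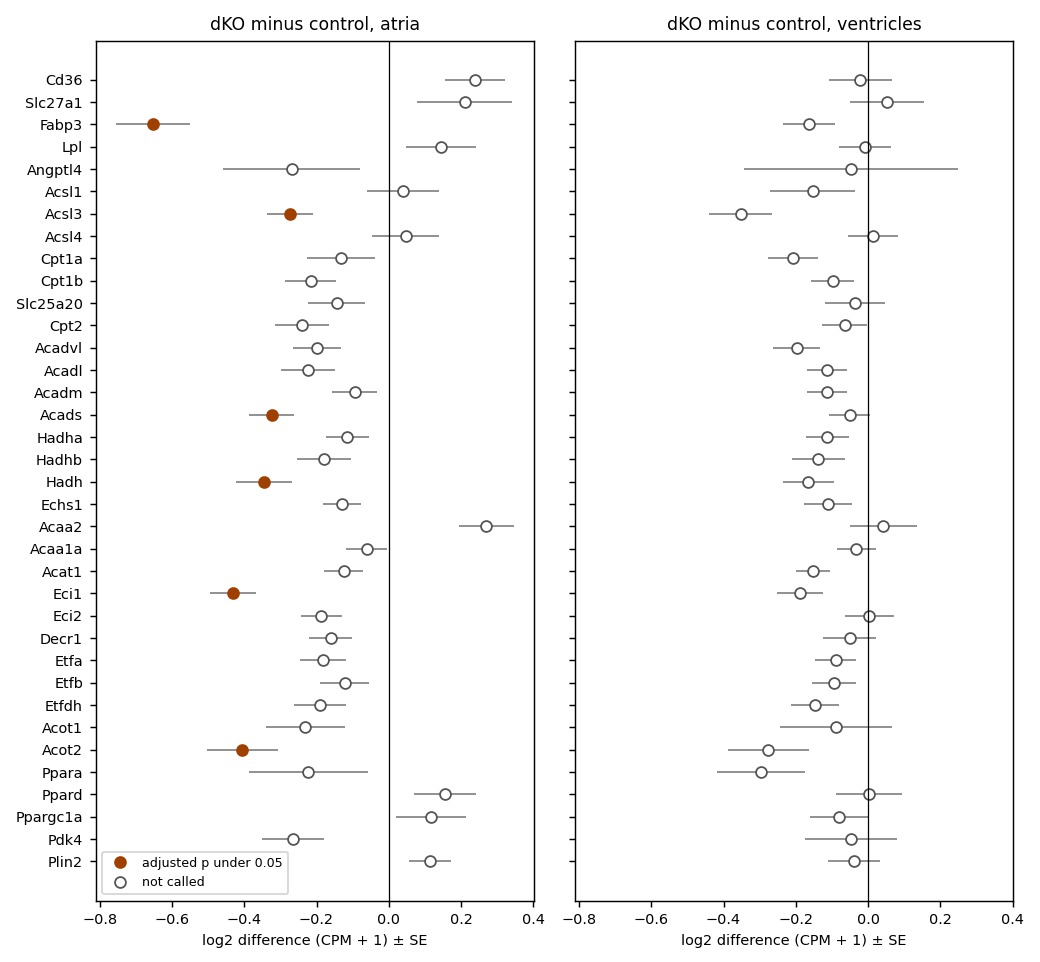
Rows are the 36 genes in order of role, and the horizontal axis is the log2 difference of dKO minus control (CPM + 1) with its SE, for atria on the left and ventricles on the right. Filled points pass an adjusted p under 0.05. The 6 filled points are all in atria and below 0, and in ventricles no point is filled.

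Whether the dKO difference itself differed between chambers was tested in a fit of all 16 libraries with the embryo as a block. Of the 36 genes, 1 passed, where 2.64% of all genes did. This was Fabp3, whose dKO difference was -0.65 in atria and -0.16 in ventricles (log2 difference 0.49, SE 0.13, adjusted p = 0.0497 for ventricle minus atrium). At an unadjusted p under 0.05 there were 5, Fabp3, Acads, Eci1 and Eci2 above 0 and Cd36 below 0, where 13.4% of all genes had such a p, while edgeR called 0 and DESeq2 1. The Fabp3 call was lost with a pseudocount of 0.5, without the filter, with a robust prior, in edgeR, without the embryo block and in 6 of 8 fits without 1 embryo (any but dKO 3 and dKO 4), with differences between 0.37 and 0.58 in the latter and an adjusted p of up to 0.142. The other 5 genes lower in dKO atria were not shown to differ between chambers in the dKO difference. For Eci1 it was 0.24 (adjusted p = 0.175), for Acads 0.27 (adjusted p = 0.0949) and for Acsl3 -0.079 (adjusted p = 0.841).

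Further genes of the same pathways were followed in 10 lists, of which 131 genes passed the minimum. In dKO atria 3 were higher and 11 lower, beside 4.04% and 3.43% of all genes. In dKO ventricles 0 were higher and 4 lower, where 2.0% of all genes were called in either direction. In control ventricles 57 were higher and 22 lower than in atria, with a median of 0.15, beside 26.4% and 20.5% of all genes. In uptake, Fabp4, the binding protein of endothelium and fat, was higher in dKO atria (log2 0.60) while Fabp3 was lower, and Apoe was higher too (log2 0.34). Got2, a mitochondrial aspartate aminotransferase, was lower (log2 -0.22). Vldlr, the receptor for very low density lipoprotein, was lower in dKO ventricles (log2 -0.35). Dbi, the acyl-CoA binding protein, was higher in dKO atria (log2 0.31) and Crat, the carnitine acetyltransferase, lower (log2 -0.29).

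Of 14 genes of peroxisomal beta-oxidation, 2 were lower in dKO atria, Hsd17b4, the bifunctional enzyme (log2 -0.40), and Decr2, the peroxisomal dienoyl-CoA reductase (log2 -0.44). Of 20 further genes of mitochondrial and branched-chain oxidation, 1 was lower, Aldh6a1 (log2 -0.29). Of 6 genes of ketone body use, Slc16a1, a monocarboxylate transporter, was lower in both chambers, with log2 differences of -0.60 in atria (adjusted p = 0.0013) and -0.46 in ventricles (adjusted p = 0.00195). Of 26 further regulators, Esrrg, the gene of ERRγ, and Rxra, the partner of the PPARs, were lower in dKO atria (log2 -0.63 and -0.35, adjusted p = 0.00542 and 0.0135). Of 14 lipid droplet and triglyceride genes, Mgll, the monoglyceride lipase, was lower in dKO atria (log2 -0.74, adjusted p = 0.00166) and Dgat2, which makes triglyceride, in dKO ventricles (log2 -0.46). Of the 131 genes, 3 passed above 0 and 2 below 0 for the dKO difference of ventricle minus atrium, where 2.64% of all genes passed. These were Esrrg (log2 0.59), Mgll (0.84), Hsd17b4 (0.41), Vldlr (-0.51) and Bdh1 (-0.67).

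Between control chambers, where 26.4% of all genes were higher and 20.5% lower in ventricles, the lists differed in their counts without a test of that difference. Peroxisomal genes had 0 higher and 5 lower of 14 in ventricles, among them Abcd2, a peroxisomal fatty acid transporter (log2 -1.18). The 26 further regulators had 15 higher and 4 lower, from Prdm16 (log2 3.79) and Perm1, a muscle gene induced by PGC-1 and ERR (log2 2.56), to Nr2f2 (log2 -2.35) and Nr2f1 (log2 -4.08), whose products are the COUP-TF receptors. Of 13 further uptake genes 6 were higher and 3 lower in ventricles (median 0.12), with Fabp4 at 2.54 and Gpihbp1, the endothelial anchor of lipoprotein lipase, at 1.63 on the log2 scale, and Apoe at -0.81 and the caveolin gene Cav1 at -0.80. Of the 10 endothelial markers, 4 were higher and 5 lower. Among enzymes, Acss1 (log2 1.07), Crat (log2 1.05), Acot13 (log2 0.98) and Oxct1, the ketone-activating transferase (log2 0.61), were higher. Bdh2 (log2 -0.54), Cpt1c (log2 -0.46), Decr2 (log2 -0.45), Acad11 (log2 -0.35) and Acad12 (log2 -0.34) were among the enzyme genes that were lower.

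Some values are uncertain because transcripts share sequence with other genes, as checked by runs of 60 bases, the read length, in GENCODE M21, and because use of strand in counting is not given in the sources used here. Cpt1b shared 78.0% of its 60-base runs with the overlapping readthrough gene Gm44502, and Etfb 42.3%, mostly with Gm45233. Fabp3 shared 32.6%, mostly with the pseudogene Fabp3-ps1, and its exons overlap Zcchc17 on the opposite strand. Acadvl shared 23.9% with Dvl2, which overlaps 42.9% of its exon bases on the opposite strand. Acot2 shared 24.9% and Acot1 17.3%, mostly with each other. Hadhb shared 18.4% and Acaa1a 14.8%, the latter mostly with Acaa1b. For Eci1, Acads and Hadh the share was 0.695%, 0% and 0.101%.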

How the data were processed

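Per the submitters' processing notes the tools were cutadapt and RSEM 1.3.1 with build GRCm38. The deposited values are CPM of 16118 genes, and the sources used here do not name their normalization, filter, annotation or use of strand. In every library 100.0% of deposited CPM values equal a whole read number plus 0.5 times a fixed step (tolerance 0.001 reads), so reads were recovered for depth and count tests. Levels were tested as log2(CPM + 1) over 13950 genes whose mean reached 1 CPM, which understates folds of low genes, using limma 3.58.1 in R 4.3.3 (moderated test with trend, two-sided, Benjamini-Hochberg over all genes, called under 0.05). A dKO contrast was fitted on the 4 and 4 libraries of its chamber. Chamber contrasts and their difference were fitted on all 16 with the embryo as a block, since each embryo gave both chambers (fitted correlation 0.108; deviations of an embryo's chambers correlated at 0.202 to 0.511). Genotypes were not paired. edgeR 4.0.16 and DESeq2 1.42.0 on recovered reads were alternatives, and called 1031 and 1552 genes in atria, where limma called 1042. The code was tested on simulated counts.

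The 36 genes, the further lists and the marker lists were chosen with earlier results of these data known. Values in every library are given for members called in a dKO contrast, the 5 with the highest mean CPM and the 5 with the largest called chamber difference in control embryos. From each further list the genes named are up to 3 with the smallest adjusted p per dKO contrast and the 2 largest called chamber differences each way, and those named for the difference between chambers and in upstream sequence were chosen after their values were seen. Lengths are those of the APPRIS principal transcript in GENCODE M21. Sequences are from RefSeq (GRCm38.p6). Protein sequences are not analysed here.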

Additional observations from a re-analysis of the deposited data

Results flagged for a closer look

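Over the 36 genes in each of the 4 groups, there were 12 cases where the highest or lowest library lay far from the other 3. The criterion was gap to range, which chance meets in about 1 of 20 groups, so chance alone would give several such cases. In dKO atrium 4, Slc27a1 measured 29.8 CPM and Echs1 93.8 CPM, each the highest of its group. In control atrium 2, Angptl4 measured 20.9 CPM and Acot2 38.8 CPM, again the highest, and Echs1 was the highest in control atrium 4 at 99.3 CPM. Acadl was highest in dKO atrium 1, at 349 CPM. In ventricles, Acsl3 was highest and Plin2 lowest in control ventricle 4, at 106 and 40.1 CPM, and Cpt2 was highest in control ventricle 2, at 50.9 CPM. Cpt2 was lowest in dKO ventricle 4, at 40.6 CPM. In dKO ventricle 2, Acads measured 107 CPM and Eci1 101 CPM, the highest of their group. Fabp3 was flagged because its dKO difference differed between chambers by limma, by 0.49 on the log2 scale for ventricle minus atrium (adjusted p = 0.0497). It was 1 of the 36 genes, where 2.64% of all genes passed. That call was lost under several alternatives and in most fits without 1 embryo, as given above.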

How the results depend on the processing

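Of the values for the 36 genes, no called difference changed direction under any alternative run. The count of members called in dKO atria, 6, was 15 with DESeq2 and 3 to 9 when 1 library was left out, 3 without dKO atrium 3 and 9 without dKO atrium 4. It was 9 in a fit of all 16 libraries, chosen after seeing the data. The count in dKO ventricles, 0, was 1 with the title number as a covariate, 1 with DESeq2, 1 with all 16 libraries in a single fit and 0 to 1 without 1 library, the latter for Eci1 without dKO ventricle 2. The count for the difference between chambers, 1, was 0 with a pseudocount of 0.5, with no filter on low values, with a robust variance prior, with edgeR and without the replicate block of the embryo, and 0 to 1 without 1 embryo. Between chambers, 25 to 28 members were called in control embryos without 1 embryo (27 with all) and 28 to 30 in dKO embryos (30 with all). Without the embryo block these counts were 26 and 30. Over all genes, the 279 calls in dKO ventricles were 469 with DESeq2 and 79 among the 4 embryos with a title number in common, and the 368 calls for the difference between chambers were 241 without control embryo 4 and 238 without dKO embryo 3. The cause of these shifts was not tested. The deposited CPM were already close to a TMM scaling (log2 factors from -0.026 to 0.022).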

Other observations

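Genes that use the products of fatty acid oxidation were looked at beside the 36. Of 32 nuclear genes of oxidative phosphorylation and the tricarboxylic acid cycle, 31 were higher in control ventricles than in control atria, with a median of 0.49 on the log2 scale and the largest called differences in Sdha (0.99), a subunit of succinate dehydrogenase, and Cyc1 (0.89), the cytochrome of complex III. Of 13 mitochondrially encoded genes, 12 were higher, with a median of 0.51, led by mt-Nd3 (0.86) and mt-Atp6 (0.76). Of all genes tested, 26.4% were higher in control ventricles and 20.5% lower, with a median of 0.031. In dKO atria limma called 0 of the 32 nuclear genes and 0 of the 13 mitochondrial ones. At an unadjusted p under 0.05, 12 of the 32 were lower and 0 higher, beside 9.52% and 10.8% of all genes, edgeR called 0 and DESeq2 7 lower. Of the 13, 0 passed an unadjusted p under 0.05, edgeR called 0 and DESeq2 1. The differences of 30 of the 32 lay below 0 in dKO atria, with a median of -0.13, and those of 30 in dKO ventricles, with a median of -0.07.

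Of 13 further genes around pyruvate dehydrogenase, 8 were higher in control ventricles, where 26.4% of all genes were. Among the 8 were Pdp1, the phosphatase of pyruvate dehydrogenase (0.96), and Mpc2, a subunit of the mitochondrial pyruvate carrier (0.73). In dKO atria 1 of the 13 was lower, the kinase gene Pdk3 (-0.22), where 3.43% of all genes were lower. In dKO ventricles the mitochondrial uncoupling protein gene Ucp2 was lower (log2 -0.32). Of 9 atrial myocyte markers, 3 were called higher and 0 lower in dKO ventricles, where 2.0% of all genes were called in either direction. Of the 9, 5 lay below 0, and the median of the 9 was -0.048. The higher ones were Nppa at 1.90, Fgf12 at 1.63 and Myl4 at 0.46 on the log2 scale, and the lowest value was -0.58 in Vsnl1, while none of the 36 fatty acid genes was called there by limma.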
